A study of Mus musculus with 4 samples.

Results

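The actin isoform genes are the 6 genes Acta1, Acta2, Actb, Actc1, Actg1 and Actg2. Every probe set whose platform annotation names one of them was taken, without use of its values. This gave 14 of the 12488 probe sets in the table, and all 6 genes were measured. Of the 14, 8 are ordinary probe sets and 6 are the array's own beta-actin control probe sets, which all read Actb. Each probe set was measured in total RNA of the seminal vesicle of 4 mice, 1 Affymetrix Mu74AV2 array per mouse. The mice were C57Bl/6J, wild type at Nkx3.1 (Nkx3.1 +/+) and 15 months old, and form a single group with no treatment. The title of the series concerns prostate differentiation, and with 1 group no genotypes, ages or tissues were compared. The arrays show which actin probe sets gave signal in the gland, and how each varied between the mice.

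Actin is the protein of the thin filaments that drive contraction in muscle and shape and move all other cells. Acta2 (alpha smooth muscle actin) and Actg2 (gamma smooth muscle actin) belong to smooth muscle, Acta1 is the alpha actin of skeletal muscle, Actc1 is that of heart muscle, and Actb and Actg1 are the cytoplasmic beta and gamma actins of nearly every cell. The wall of the seminal vesicle is a coat of smooth muscle around a secretory epithelium, and it contracts at ejaculation. The proteins and coding sequences of the family are nearly the same, so an array probe for one member can bind the transcript of another. The suffix of a probe set marks this: a plain _at set was designed as unique, _s_at shares probes among similar transcripts, _f_at shares them within a gene family, and _i_at holds fewer probes than the full set.

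Muscle actin genes are textbook targets of serum response factor, which binds the CArG box, a motif of CC, 6 bases that are each A or T, and GG. The windows from 250 bases before to 50 bases after the annotated start are shown for the 4 actin genes held in the RefSeq promoter table (GRCm38.p6), because members from both the muscle and the cytoplasmic class carry the motif. Actb and Actg2 had no entry. The Acta2 window is placed at a start that lies inside the annotated span of the gene, and the other three at its outer end. Capitals mark CArG boxes, with up to 1 core base allowed to be C or G. The windows are on the minus strand, at chr8:123894726-123895025 for Acta1, chr19:34255324-34255623 for Acta2, chr2:114052826-114053125 for Actc1 and chr11:120348446-120348745 for Actg1.
Acta1: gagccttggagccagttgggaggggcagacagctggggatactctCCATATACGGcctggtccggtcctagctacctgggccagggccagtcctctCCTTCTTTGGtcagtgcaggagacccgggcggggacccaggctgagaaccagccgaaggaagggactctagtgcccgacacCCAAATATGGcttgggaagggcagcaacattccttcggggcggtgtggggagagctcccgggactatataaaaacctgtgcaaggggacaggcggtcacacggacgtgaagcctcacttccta
Acta2: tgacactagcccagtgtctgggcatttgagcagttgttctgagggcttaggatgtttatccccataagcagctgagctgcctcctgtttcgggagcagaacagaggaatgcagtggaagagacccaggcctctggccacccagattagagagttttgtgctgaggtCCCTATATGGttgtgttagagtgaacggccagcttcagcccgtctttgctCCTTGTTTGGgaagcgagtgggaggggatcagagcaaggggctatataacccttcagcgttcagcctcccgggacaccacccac
Actc1: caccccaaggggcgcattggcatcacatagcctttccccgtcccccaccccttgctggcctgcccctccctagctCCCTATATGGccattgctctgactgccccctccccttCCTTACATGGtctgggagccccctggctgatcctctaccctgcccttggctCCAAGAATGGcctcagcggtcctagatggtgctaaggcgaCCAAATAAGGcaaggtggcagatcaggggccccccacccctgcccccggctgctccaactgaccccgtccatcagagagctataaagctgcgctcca
Actg1: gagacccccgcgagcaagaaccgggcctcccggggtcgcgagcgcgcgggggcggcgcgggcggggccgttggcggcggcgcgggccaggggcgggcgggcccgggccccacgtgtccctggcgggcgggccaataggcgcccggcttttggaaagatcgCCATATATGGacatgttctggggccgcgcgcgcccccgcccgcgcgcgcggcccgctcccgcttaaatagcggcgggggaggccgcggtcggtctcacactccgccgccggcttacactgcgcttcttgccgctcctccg

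A CArG box with a core wholly of A and T was present in Acta1 (CCAAATATGG, bases -73 to -64 from the start), in Actc1 (CCAAATAAGG, -47 to -38) and in Actg1 (CCATATATGG, -90 to -81). Acta2 had none of this strict form, and held CCCTATATGG at -84 to -75 and CCTTGTTTGG at -34 to -25. With 1 core base free, Acta1 held 3 boxes, Acta2 2, Actc1 4 and Actg1 1. Of 32851 promoter windows of the same length in the table, 1.63% held the strict form, 9.98% held at least 1 box of the looser form and 0.822% at least 2. The motif reads the same on both strands, and overlapping matches were counted. The letters TATAAA, searched on both strands and present in 13.6% of windows, were found in Acta1 at -7 to -2 and in Actc1 at 34 to 39 after the start, and not in the windows of Acta2 and Actg1. These matches are a description of the letters and no measure of binding.

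**Figure D1:**
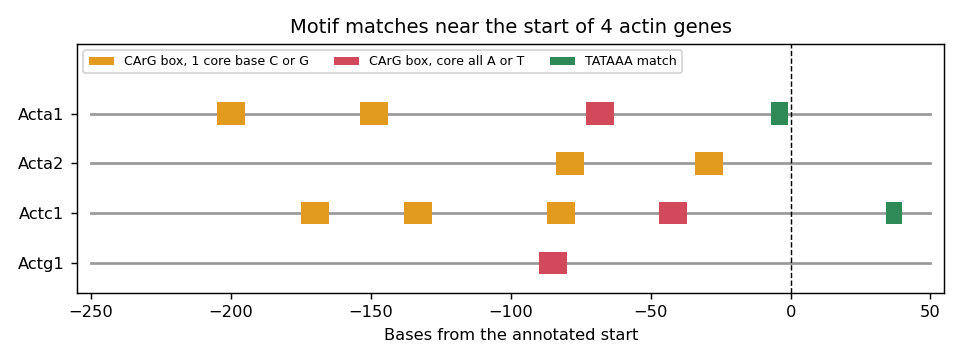
Horizontal axis, bases from the annotated start; each line is the window of 1 actin gene, with blocks at CArG boxes (colour by whether 1 core base is C or G) and at TATAAA matches. Acta1 has 3 CArG boxes, Acta2 2, Actc1 4 and Actg1 1, and those of Acta2 and Actg1 all lie within 90 bases before the start.

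Values are log2 expression values made with RMA, so a difference of 1 is a 2-fold change. A probe set was counted as above background when it exceeded, on all 4 arrays, the 90th percentile of a list of other-organ genes on the same array (90 genes, 113 probe sets). That limit was 6.10, 6.00, 6.07 and 6.16 in mice 1 to 4. The arrays resembled each other, with Pearson's r of 0.992 to 0.994 over all probe sets (not independent of each other) and medians of 4.95 to 4.98. The seminal vesicle secretion genes Svs2 and Svs5, checked as markers of the labelled tissue, had 12.53 ± 0.10 and 13.09 ± 0.06 (SD, n = 4). Precision is limited by having only 4 arrays, and nothing gives the error of a single mouse.

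Actin probe sets gave signal above background in the gland. Of the 8 ordinary actin probe sets, 7 were above the limit on all 4 arrays, where 24.3% of the 12422 tested probe sets were. The exception was a probe set of Actc1. Of those above, the family set of Actb came nearest to the limit, with 6.66 in mouse 1 against 6.10. The same 7 of 8 stood with limits at the 75th and 95th percentile or at each array's median. Of the control probe sets, the 3 that read the messenger strand were above the limit on every array, and the 3 for the opposite strand were above it on 0 arrays. Each probe set binds with its own strength, so levels are not ranked between genes. Differences between control probe sets of the same transcript are given only to compare mice.

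The smooth muscle actins Acta2 and Actg2 were bright and highest in mouse 1. Acta2 (93100_at) had log2 values of 9.12, 8.57, 8.91 and 8.64 in mice 1 to 4, a mean of 8.81 ± 0.25 (SD, n = 4). Mice 1 and 3 were high and mice 2 and 4 low, and the span from lowest to highest was 1.47-fold. Actg2 (93102_f_at) had 10.55, 10.03, 9.91 and 10.18, a mean of 10.17 ± 0.28 (SD, n = 4). Mouse 1 stood 0.38 above the mean and also 0.38 above the next mouse, and mouse 3 was lowest. The span was 1.56-fold. This family set is the only probe set of Actg2, and whether it read Actg2 or another actin was not tested, which holds for each value given for Actg2 and for each class mean. Acta2 and Actg2 thus shared their highest mouse, while mouse 3 was second for Acta2 and last for Actg2.

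Probe sets annotated to the skeletal and cardiac actin genes also gave signal in this gland, though not all of them did. Acta1 (100381_at, a set designed as unique) had 9.82, 9.28, 9.52 and 9.42 in mice 1 to 4, a mean of 9.51 ± 0.23 (SD, n = 4). Its order of mice was the same as that of Acta2, from mouse 1 through 3 and 4 to 2, an order that 6.03% of the 3020 probe sets above the limit had. Actc1 was read by a pair of probe sets that disagreed on whether the gene gave signal. The family set 101029_f_at had 8.71, 8.49, 8.28 and 8.40, a mean of 8.47 ± 0.18 (SD, n = 4), above the limit in every mouse. The incomplete set 101028_i_at had 2.43, 2.17, 2.33 and 2.16, a mean of 2.28 ± 0.13 (SD, n = 4), under the limit in every mouse. Mouse 1 was highest by either set. Whether the bright family set read Actc1 or another actin was not tested, as the probe sequences were not used here. The same holds for 100381_at, the only probe set of Acta1.

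Other genes of skeletal and heart muscle were mostly at the background level. Of 21 measured skeletal muscle markers, actins left out, 3 exceeded the limit, and of 17 cardiac markers 3 did, beside 24.3% of all tested probe sets and 10 of the 90 other-organ genes that set the limit. Marker and other-organ genes were each counted by their brightest probe set, while the 24.3% covers every tested probe set. Among the first listed, the muscle creatine kinase gene Ckm had 5.04 ± 0.14 and the fast myosin heavy chain genes Myh4, Myh1 and Myh2 had 5.05 ± 0.08, 2.19 ± 0.06 and 2.76 ± 0.15 (SD, n = 4 each). The skeletal genes above the limit were Pvalb, a calcium-binding protein gene, at 9.19 ± 0.11, the fast troponin C gene Tnnc2 at 6.74 ± 0.12 and the calsequestrin gene Casq1 at 6.48 ± 0.10 (SD, n = 4 each). Pvalb was read by an incomplete set, Tnnc2 by a family set and Casq1 by a plain set. All 3 were highest in mouse 1, as Acta1 was, by 0.01 to 0.12 over the next mouse, where 23.6% of probe sets above the limit were. Of the cardiac genes, the alpha cardiac myosin heavy chain gene Myh6 had 2.66 ± 0.10, and Myh7, Nppa and Gata4 were above the limit at 6.54 ± 0.10, 7.21 ± 0.08 and 6.31 ± 0.09 (SD, n = 4 each), with 0 of the 3 highest in mouse 1. Myh7 was read by a family set, and Nppa and Gata4 by plain sets. With the 75th percentile as limit 7 skeletal and 5 cardiac markers passed, and with the 95th percentile 2 and 1.

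**Figure D2:**
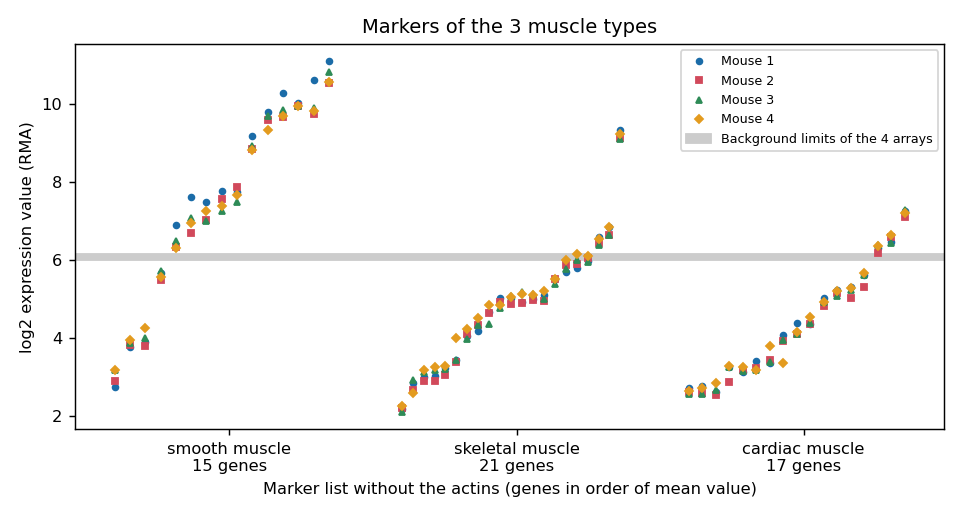
Vertical axis, log2 expression value (RMA); each column of 4 symbols is 1 marker gene in mice 1 to 4, ordered by mean within its list, and the grey band spans the background limits of the 4 arrays. Smooth muscle markers lie above the band for 11 of 15 genes, skeletal for 3 of 21 and cardiac for 3 of 17.

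Of the cytoplasmic actins, Actb had mouse 1 low where the muscle actins had it high, and Actg1 did not. Actg1 (96573_at) had 10.40, 10.31, 10.41 and 10.11 in mice 1 to 4, a mean of 10.31 ± 0.14 (SD, n = 4), and spanned 1.23-fold. Mice 3 and 1 were highest, 0.01 apart, with mouse 2 not far behind, and mouse 4 was lowest, 0.19 under the next mouse. For Acta2 mice 1 and 3 were also the highest, but 0.21 apart, and mouse 2 was lowest. Actb by its shared set, 95705_s_at, had 7.43, 8.59, 8.02 and 7.90, a mean of 7.98 ± 0.47 (SD, n = 4). Mouse 1 was lowest and mouse 2 highest, 2.22-fold apart, the widest span of the 14 actin probe sets. By its family set, 101578_f_at, Actb had 6.66, 7.02, 7.12 and 7.03, a mean of 6.96 ± 0.21 (SD, n = 4), with mouse 1 again lowest, 0.36 under the next mouse.

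The beta-actin controls read the 3', middle and 5' parts of the Actb transcript. The 3' control had 11.42, 11.56, 11.39 and 11.77 in mice 1 to 4, the middle control 10.77, 11.14, 10.84 and 11.21, and the 5' control 10.34, 10.75, 10.37 and 10.79. Mouse 4 was highest by all 3, and mouse 1 was lowest by the middle and 5' controls and mouse 3 by the 3' control. The SDs were 0.18, 0.22 and 0.24 (n = 4), smaller than that of the shared set. The step from middle to 3' varied more between mice than the step from 5' to middle: it was 0.65, 0.42, 0.55 and 0.56 (SD 0.09, n = 4) against 0.43, 0.40, 0.47 and 0.42 (SD 0.03, n = 4). The opposite-strand controls lay at 5.09 to 5.32 for the 3' part, 3.48 to 3.80 for the middle and 5.15 to 5.46 for the 5' part.

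The probe sets annotated to Actb thus did not give the same order of mice. The deviations of the shared set from its own mean differed from those of the 3' control by a root mean square of 0.40, from the middle control by 0.33 and from the family set by 0.31. The 3 controls differed among themselves by 0.03 to 0.10. For Actb, mouse 1 was lowest by 4 of the 5 probe sets on the messenger strand, but the margins differed. It was 0.47 under the next mouse by the shared set and 0.36 by the family set. By the middle and 5' controls it was only 0.07 and 0.03 under mouse 3, and the controls read the same transcript. Which mouse was highest depends on the probe set: mouse 2, 3 or 4.

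**Figure D3:**
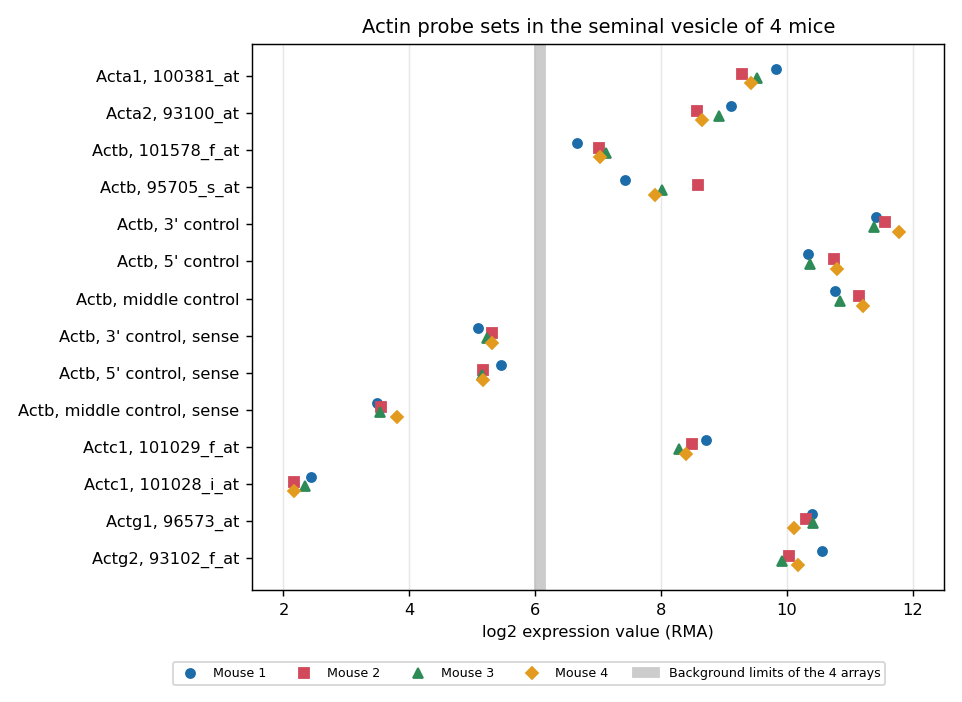
Horizontal axis, log2 expression value (RMA); each row is 1 of the 14 actin probe sets and each symbol 1 mouse, with the background limits of the 4 arrays as a grey band. Of the 8 ordinary probe sets, all but the incomplete set of Actc1 lie right of the band in every mouse, while the 3 opposite-strand controls lie left of it.

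No actin probe set was called variable between the mice. Each probe set's variance over the 4 arrays was set against the spread typical of its signal (the prior of limma's model), with adjustment over 12422 probe sets, of which 35 or 0.282% passed at 0.05 after adjustment. Of the 8 actin probe sets, 0 were called by limma, and 2 had an unadjusted p under 0.05, where 5.44% of all probe sets did. These were the shared set of Actb, with an SD 3.69 times the prior SD (adjusted p = 0.237, limma), and Actg2, at 2.20 times (adjusted p = 0.834, limma). Acta2 followed with 1.95 times (adjusted p = 0.922, limma) and Acta1 with 1.79 times (adjusted p = 0.960, limma), and Actg1 was nearest to the typical spread at 1.09 times (adjusted p = 0.993, limma). The test asks for a large excess, so a probe set that missed it may still have differed between mice. The closest approach among all alternatives was Actb by its shared set without mouse 3, with an SD of 0.58 (adjusted p = 0.0851, limma).

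The SDs of the actins were in the upper part of the array. The median SD of the 8 was 0.22, against 0.11 over all tested probe sets, and 8 of 8 exceeded that overall median. The SD of the shared set was higher than that of 99.3% of tested probe sets, of Actg2 than 96.2%, of Acta2 than 94.8% and of Acta1 than 92.5%. Actg1, at 65.5%, and the incomplete set of Actc1, at 62.3%, were lower in that order. Family sets made up 8.65% of tested probe sets and had a median SD of 0.12, plain sets had 0.11, and 1.21% of family sets were called against 0.146% of plain sets.

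All 5 probe sets of the 4 muscle actin genes were highest in mouse 1, where 25.8% of tested probe sets were. Among them, the incomplete set of Actc1 was under the limit in every mouse. Of the 7 actin probe sets above the limit, 4 were highest in mouse 1, where 23.6% of all above it were. Whether the family sets of Actg2 and Actc1 read the same transcript was not tested. Nor was it tested for the plain sets of Acta1 and Acta2, so the 5 may not be separate readings. The 2 ordinary probe sets of Actb were lowest in mouse 1, where 20.7% of tested probe sets were, and Actg1 was neither. Shifting the arrays to a common median or repeating quantile normalization left the highest and the lowest mouse of each of the 8 in place. Without mouse 1 the SD was 0.12 for Acta1, 0.18 for Acta2, 0.13 for Actg2, 0.10 for Actc1 by its family set and 0.06 for Actb by its family set, but 0.37 for Actb by its shared set and 0.15 for Actg1. The spread of Acta1, Actg2, of Actc1 by its family set and of Actb by its family set thus rested largely on mouse 1, and that of Actg1 did not. For Actb by its shared set mouse 2 mattered most, with an SD of 0.31 without it (adjusted p = 0.795, limma).

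**Figure D4:**
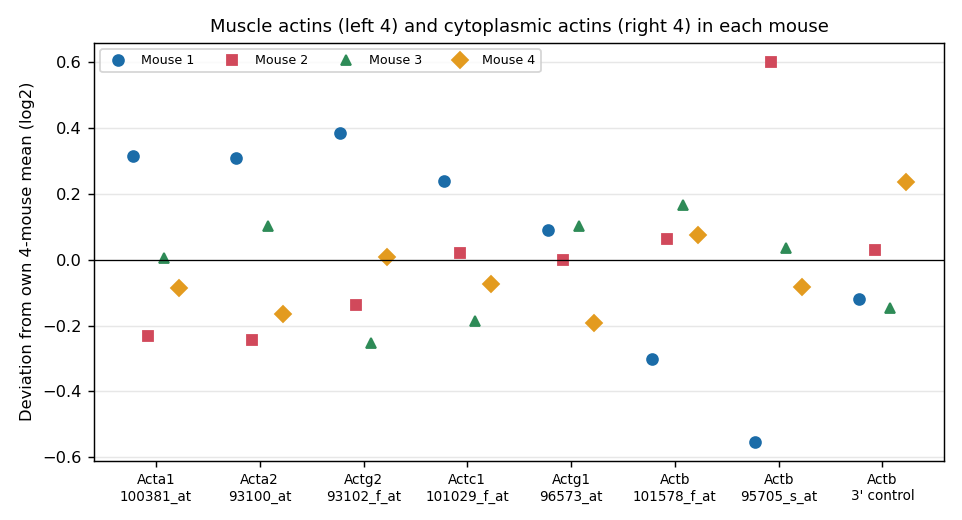
Vertical axis, deviation of each mouse from the probe set's own 4-mouse mean in log2 units; each column is 1 actin probe set, muscle actins on the left and cytoplasmic actins on the right, and symbols are mice. Mouse 1 lies 0.24 to 0.38 above the mean for the 4 muscle actins shown and under it for the 3 Actb probe sets shown.

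The muscle and cytoplasmic classes were then set side by side within each mouse, each gene by its brightest ordinary probe set and each as a deviation from its own mean. The mean of Acta2 and Actg2 was 0.35 in mouse 1 and -0.19, -0.08 and -0.08 in mice 2, 3 and 4. The mean of Actb and Actg1 was -0.23 in mouse 1 and 0.30, 0.07 and -0.14 in the others. The muscle minus cytoplasmic difference was 0.58, -0.49, -0.14 and 0.06 in mice 1 to 4, a range of 1.07 log2 units (SD 0.45, n = 4). Without mouse 1 the range was 0.55. The size of this contrast depended on how Actb was read: with the 3' control, an alternative added after the data were seen, it was 0.36, -0.20, -0.05 and -0.10, a range of 0.56, and with plain _at sets alone (Acta2 minus Actg1) the range was 0.46. Mouse 1 kept the highest and mouse 2 the lowest difference in each case, while mouse 4 changed sign with the 3' control.

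Among the actins, the nearest in pattern were Acta1 and Acta2. The root mean square difference between their deviations was 0.06, and of 2681 probe sets of other single genes above the limit, 7 were closer to Acta1 and 3 closer to Acta2. Actg2 and the family set of Actc1 came next at 0.12, with 20 probe sets closer to Actg2 and 263 closer to Actc1. Both of these are family sets, and both had mouse 1 first and mouse 3 last. Acta2 and Actg2, both smooth muscle actins, were 0.21 apart, with 904 probe sets closer to Acta2 and 511 closer to Actg2. The cytoplasmic Actg1 was nearer to Acta2 than that, at 0.16, with 288 probe sets closer to Acta2 but 1581 closer to Actg1. Actg1 was 0.18 from Acta1, with 667 closer to Acta1 and 1798 closer to Actg1, and 0.26 from Actg2. The distances alone thus did not split muscle from cytoplasmic actins. They were not scaled by SD, which was small for Actg1, at 0.14. Actb by its shared set was 0.45 to 0.62 from every other actin. These distances rest on 4 arrays and are a description.

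Smooth muscle, matrix and other genes lay closest to the muscle actins by the same measure. Nearest to Acta2 were Tagln, the smooth muscle actin-binding protein transgelin, at a distance of 0.03, the elastin gene Eln at 0.04 and the amino acid transporter gene Slc7a5 at 0.05. Tagln had 11.09, 10.54, 10.83 and 10.57 in mice 1 to 4, highest in mouse 1 and lowest in mouse 2 as Acta2 was. Nearest to Acta1 were the galectin gene Lgals1 (0.03), the kinase gene Dmpk (0.05) and Tspan9 (0.05). Nearest to Actg2 were Fcgbp (0.04), the basement membrane collagen gene Col4a2 (0.06) and Des, the intermediate filament desmin of muscle (0.06), and nearest to Actc1 were Phpt1 (0.04), the actin crosslinker gene Actn1 (0.04, also a family set) and Gpx4 (0.05).

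The cytoplasmic actins had other neighbours. Nearest to Actb by its shared set were the lysosomal protease gene Ctsl at 0.13, the histone-binding protein gene Rbbp7 at 0.16 and Ndfip1 at 0.16. Ctsl had 7.80, 8.75, 8.03 and 8.12, lowest in mouse 1 and highest in mouse 2 as Actb was. Nearest to Actg1 were Ifi27, the mitochondrial thioredoxin gene Txn2 and Smoc2, at distances of 0.01 to 0.02 beside its SD of 0.14.

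Markers of smooth muscle shared their highest mouse with the muscle actins. Of 15 measured smooth muscle markers, actins left out, 11 were above the limit and 10 of these were highest in mouse 1, where 23.6% of probe sets above the limit were. The exception was Vcl, highest in mouse 2. Over the 11, the median deviation was 0.30 in mouse 1 and -0.16, -0.02 and -0.14 in mice 2, 3 and 4. The calponin gene Cnn1 had 10.61, 9.73, 9.88 and 9.81, and the smoothelin gene Smtn had 7.61, 6.68, 7.08 and 6.94. The list shares its mice with the actins and was known to be high in mouse 1, so it is no independent evidence. Markers of other cells did not all follow: 3 of 5 fibroblast and pericyte markers above the limit were highest in mouse 1, 0 of 7 luminal epithelium markers, 1 of 2 myoepithelial and basal markers and 0 of 3 white blood cell markers. The part of cell composition in the actin pattern was not tested, and in whole tissue fewer cells of a type and less RNA per cell cannot be told apart.

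Myoepithelial and basal cells are epithelial cells that can hold Acta2. Among their markers, the keratin genes Krt5 and Krt14 had 4.80 ± 0.16 and 4.42 ± 0.13 (SD, n = 4), under the limit. In this list 2 of 8 genes passed it, Krt17 at 6.32 ± 0.09 and Itgb4 at 6.24 ± 0.05. With the 95th percentile as limit 0 of the 8 passed. Beside the order of the muscle actins, the beta-actin 3' minus 5' difference was 1.08, 0.82, 1.02 and 0.98 in mice 1 to 4. Its whole order, from mouse 1 through 3 and 4 to 2, was that of Acta1 and Acta2. The Gapdh 3' minus 5' difference was -0.12, -0.15, -0.15 and -0.13 in mice 1 to 4 (SD 0.02, n = 4), also with mouse 1 highest. It ran from mouse 1 through 4 and 2 to 3, which was the whole order of Actg2. The part of RNA quality was not tested.

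Genes that assemble, cut and anchor actin filaments, or act in the serum response factor circuit, gave signal above the limit in 46 of 85 cases over 5 lists, where 24.3% of all tested probe sets did. The shares are not alike, as each list gene was counted by its brightest probe set, which raises the list share. Of the 85, 0 were called by limma (0.282% over all) and 8 had an unadjusted p under 0.05 (5.44% over all), with a median SD of 0.12 against 0.11. Of the 46, 5 were highest in mouse 1, where 23.6% of probe sets above the limit were. Among actin monomer and turnover factors 10 of 15 were above the limit, including the profilin gene Pfn1 (7.59 ± 0.10), the cofilin gene Cfl1 (8.69 ± 0.08) and the monomer-binding thymosin gene Tmsb4x (8.68 ± 0.17), while Pfn2 (4.45 ± 0.12) and Cfl2 (4.56 ± 0.09), the latter the muscle form of cofilin, were not (SD, n = 4 each). Of nucleators and their activators 8 of 16 were above, among them the Arp2/3 complex genes Actr3 (7.85 ± 0.09), Arpc2 (8.15 ± 0.22) and Arpc4 (8.12 ± 0.04).

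Capping, severing and bundling genes were above the limit in 11 of 19 cases. The capping protein genes Capza1 and Capzb had 6.57 ± 0.17 and 7.85 ± 0.06 (SD, n = 4), and Capg, which caps filament ends, had 7.01, 7.66, 7.05 and 7.52 in mice 1 to 4, high in mice 2 and 4. Of the tropomyosins and actin-membrane linkers 10 of 19 were above, with the talin gene Tln1 at 9.80 ± 0.06, Tpm4 at 7.91 ± 0.07 and the ezrin gene Ezr at 7.93 ± 0.08 (SD, n = 4 each). In the serum response factor circuit 7 of 16 genes were above and 0 of these highest in mouse 1. Srf and Myocd were not analysed here. Mrtfa, a coactivator of serum response factor, had 6.11, 6.04, 6.19 and 6.00, around the limit and with mouse 3 highest, and Rhob, a small GTPase gene, had 8.32, 8.93, 8.24 and 8.33, high in mouse 2 alone.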

How the data were processed

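Seminal vesicle RNA of 4 mice was measured on 4 arrays. The authors deposited RMA values, per the submitters' processing notes. The authors' RMA step yields log2 values, and a range of 1.47 to 13.18 fits that scale. The RMA version and the set of arrays normalized as a group are not given in the sources used. RMA removes shifts shared by all probe sets of an array.

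The 66 control probe sets were left out of tests, which left 12422. Genes came from the platform annotation and were matched by gene ID to RefSeq (GRCm38.p6). Of 10833 probe sets with a single gene, 10817 matched. A list gene was represented by its brightest probe set. Mice were numbered in series order, which only names them.

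Each variance (4 arrays, 3 residual degrees of freedom) was tested against limma's robust, signal-dependent prior (8.06 degrees of freedom) by an upper-tail F test with Benjamini-Hochberg adjustment, and checked on simulated data. P-values describe these 4 samples. No array was left out. Named genes were all actin probe sets, the first 4 measured genes of each list, the 3 of largest SD above the limit, and the 3 nearest in pattern to each actin. Those shown here were chosen from these, and Svs2 and Svs5 were named outside the rule. The members and lists were chosen with earlier results of these data known. Alternatives covered scaling, prior fit, filters, limits, probe set choice and leaving out each mouse. R 4.3.3, limma 3.58.1, Python 3.11.15 and matplotlib 3.10.9 were used.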

Additional observations from a re-analysis of the deposited data

Results flagged for a closer look

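Of 107 results checked, 8 (7.48%) had a mouse that stood apart from the other three by more than Dixon's 95% critical value of 0.829 for the gap over the range. Chance alone gives about 5%. Only 1 of the 14 actin probe sets was among them: the opposite-strand 5' control of beta-actin had 5.46 in mouse 1 against 5.18, 5.15 and 5.17 in mice 2, 3 and 4, under the background limit throughout. Of genes that act on actin, the thymosin gene Tmsb10 had 6.81 in mouse 4 against 7.11 to 7.13, the Arp2/3 subunit gene Arpc1a had 6.28 in mouse 3 against 6.55 to 6.58, and Rhob had 8.93 in mouse 2 against 8.24 to 8.33. Of the marker genes, Epcam had 4.67 in mouse 2, Trp63 had 4.99 in mouse 3, Col3a1 had 5.91 in mouse 4 and Pdgfra had 5.74 in mouse 4, and all of these were under the limit.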

How the results depend on the processing

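The count of 7 actin probe sets above the limit and the count of 0 called variable held under every alternative run for them. Each of the 86 refits of a single actin probe set left it uncalled, with a lowest adjusted p of 0.0851 (limma). The count of all variable probe sets, 35, became 15 with a non-robust prior, 0 with probe sets above the mean limit alone (180 at an unadjusted p under 0.05, limma) and 1 with those above the median signal, and ran from 17 to 44 with a mouse left out (17 without mouse 4, 23 without mouse 2). The range of the muscle minus cytoplasmic difference, 1.07, became 0.46 with plain _at sets, 0.56 with the 3' control for Actb, and 0.55 to 1.07 with a mouse left out, the lowest without mouse 1. The cause of these changes was not tested. No paired analysis was possible because there is 1 group. With 4 arrays and a strict test, moderate differences between mice would not be called.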
